A study of Mus musculus with 4 samples.

Results

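The nuclear receptors for oestrogen, progesterone, glucocorticoid and mineralocorticoid, together with aromatase, were followed in the hypothalamus of mice that carry a ΔFosB transgene. The 6 genes were chosen by name: Esr1 and Esr2 (oestrogen receptors α and β), Pgr (progesterone receptor), Nr3c1 (glucocorticoid receptor), Nr3c2 (mineralocorticoid receptor) and Cyp19a1 (aromatase). Each was represented by 1 probe set of the array, and they stand among 21264 genes measured. Esr1 was 1.63-fold higher on the ΔFosB arrays than on control arrays and was the only one of the 6 to pass the test. For the other 5 the fitted differences lay between -0.10 and 0.33 on the log2 scale, and none passed.

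Total RNA of the hypothalamus of male mice aged 12 weeks was hybridised to 4 Affymetrix arrays, with no treatment. Of these arrays, 2 came from mice whose genotype is written ENOI2DeltaFosB in the sample labels and ENO2DeltaFosB in the study title, and 2 came from wild-type control mice. ΔFosB is a truncated, long-lived product of the Fosb gene, and Eno2 is the gene of neuronal enolase. The labels used here do not state which promoter drives the transgene, the strain, or how the hypothalamus was dissected. Arrays are called A and B within each group, after their titles. The labels do not tie the arrays to separate animals, and p-values therefore describe the spread among these samples alone, which may be technical. In such tissue RNA, fewer cells of a type and less RNA per cell cannot be told apart.

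Steroid receptors are transcription factors that wait in the cell bound to chaperones, take up a hormone that has crossed the membrane, and then bind DNA as dimers and recruit coactivators or corepressors. In the hypothalamus, oestrogen receptor α is known from the ventromedial, arcuate and medial preoptic nuclei, where it acts on energy use and on reproductive behaviour. Progesterone receptor is induced by oestrogen in many of the same neurons. Glucocorticoid and mineralocorticoid receptors carry the feedback of adrenal steroids, and aromatase makes oestrogen from androgen inside the brain. ΔFosB itself pairs with Jun proteins and binds the motif called AP-1.

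The stretches of DNA around the annotated starts of Esr1 and Esr2 are shown because Esr1 is the gene that passed the test, Esr2 is its closest relative, and AP-1 and the receptors' own elements are the motifs that ΔFosB and these receptors bind. They are RefSeq windows on the assembly GRCm38.p6, 250 bases before to 50 bases after each start, written 5′ to 3′ on the strand of the gene. Capitals mark the oestrogen half-site TGACC or its reverse complement. The Esr1 windows lie at chr10:4611739-4612038 (window 1) and chr10:4709908-4710207 (window 2), both on the plus strand, and the Esr2 window at chr12:76177210-76177509 on the minus strand.
Esr1 window 1: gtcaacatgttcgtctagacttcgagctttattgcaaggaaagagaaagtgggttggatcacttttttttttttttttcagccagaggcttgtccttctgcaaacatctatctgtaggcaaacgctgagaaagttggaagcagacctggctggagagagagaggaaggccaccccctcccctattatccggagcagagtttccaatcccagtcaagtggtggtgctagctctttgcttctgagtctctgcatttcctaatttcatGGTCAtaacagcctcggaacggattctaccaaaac
Esr1 window 2: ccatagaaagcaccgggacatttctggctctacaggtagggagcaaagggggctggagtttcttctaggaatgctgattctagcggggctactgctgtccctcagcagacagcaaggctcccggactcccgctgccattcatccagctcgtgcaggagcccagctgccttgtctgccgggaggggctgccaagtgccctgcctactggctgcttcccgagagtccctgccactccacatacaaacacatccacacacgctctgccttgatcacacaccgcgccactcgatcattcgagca
Esr2 window: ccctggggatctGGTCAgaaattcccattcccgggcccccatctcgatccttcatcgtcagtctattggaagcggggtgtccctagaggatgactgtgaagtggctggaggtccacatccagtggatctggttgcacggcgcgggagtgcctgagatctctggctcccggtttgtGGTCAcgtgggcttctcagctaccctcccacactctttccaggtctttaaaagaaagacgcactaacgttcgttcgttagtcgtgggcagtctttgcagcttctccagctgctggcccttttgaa

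Windows were found for 5 of the 6 genes (Esr1, Esr2, Pgr, Nr3c2 and Cyp19a1), 8 windows in all, and were searched on both strands. No window of these genes held the AP-1 letters TGANTCA, which 7.81% of all 32851 windows of this length held. The cyclic AMP element TGACGTCA, present in 1.79% of all windows, was found in none of the 8 either. The palindromic oestrogen response element GGTCANNNTGACC (0.070% of windows), the shared corticosteroid and progesterone element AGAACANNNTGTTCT (0.0091%) and its half-site TGTTCT (19.0%) were likewise not found. The oestrogen half-site, which also forms the ends of the oestrogen response element, occurred in 40.5% of all windows. It was found 1 time in Esr1 window 1, 16 bases after the start, and not in Esr1 window 2. The Esr2 window held 2 matches, the Nr3c2 window held 2, and the first and second Cyp19a1 windows held 1 each, whereas the Pgr window held none. A match is a run of letters and not a bound site, and the absence of a match says only that these letters are not in these 300 bases.

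Signals are the linear intensities that the authors deposited, and differences are given on the log2 scale as ΔFosB minus control, from limma fitted on all genes past a filter on dim signal. That filter kept the upper 60% of features, those with a signal over 717. The dim end of the scale was gauged by 1230 olfactory and vomeronasal receptor features, genes hardly used in the hypothalamus, whose median signal was 299 and whose 95th percentile was 831. A signal under 831 is called here in the receptor range. A gene passed the test where its Benjamini-Hochberg adjusted p was under 0.05. Of 14519 genes tested, 1902 (13.1%) passed, 898 (6.18%) higher on the ΔFosB arrays and 1004 (6.92%) lower. Without control A 702 passed, and without control B 1253. Of the 6 genes, 4 passed the filter and 1 of these 4 passed the test, with 1 higher and 0 lower. Without a filter, 1 of the 6 passed, beside 1721 of 21264 genes (8.09%). Arrays of the 2 groups did not overlap for any of the 6 genes, 5 of them higher and 1 lower on the ΔFosB arrays. Groups this small often do not overlap: 60.3% of genes past the filter and 59% of all genes showed the same.

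**Figure D1:**
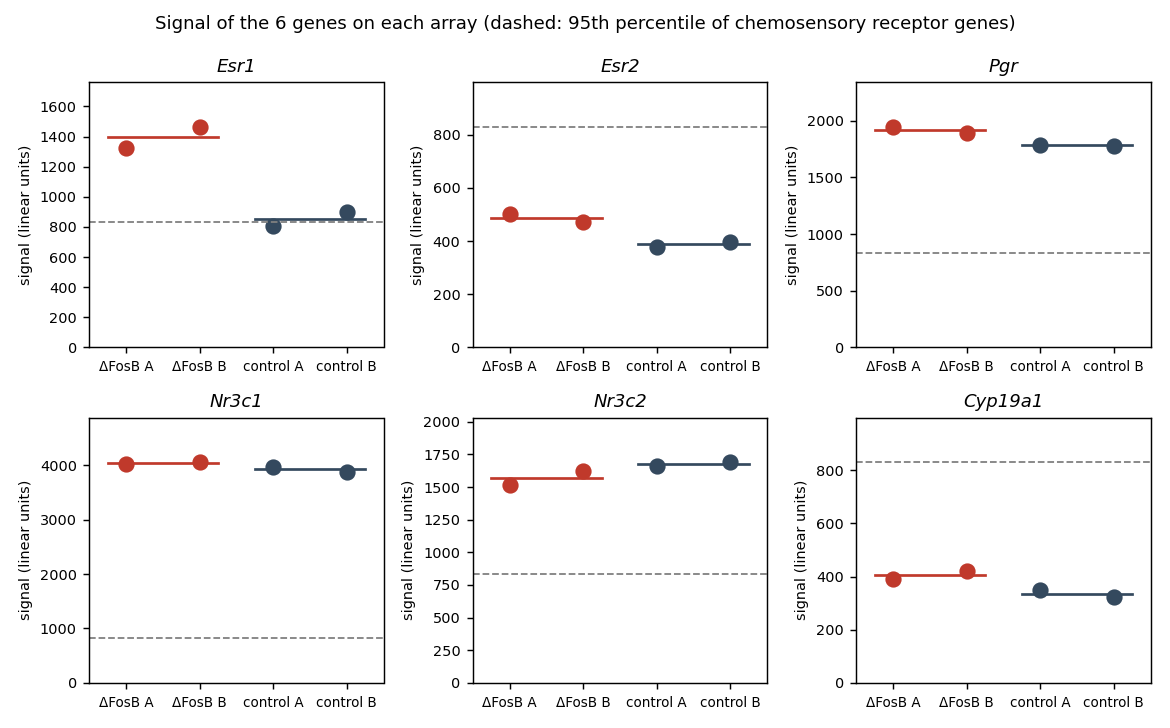
Signal (linear units, axis from 0) of Esr1, Esr2, Pgr, Nr3c1, Nr3c2 and Cyp19a1 on each of the 2 ΔFosB arrays (red) and 2 control arrays (blue), with the group mean as a bar and the 95th percentile of the olfactory and vomeronasal receptor features (831) as a dashed line. Esr1 signals of 1322 and 1466 on the ΔFosB arrays stand apart from 805 and 902 on control arrays, while all signals of Esr2 and Cyp19a1 lie under the dashed line.

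Esr1 (NCBI gene 13982), which encodes the receptor through which most known oestrogen actions on the ventromedial nucleus run, had signals of 1322 and 1466 on ΔFosB arrays A and B, against 805 and 902 on control arrays A and B. Both ΔFosB arrays lay above both control arrays, and the nearest pair still differed 1.47-fold. The means were 1394 ± 102 on ΔFosB arrays and 853 ± 68.8 on control arrays (SD, n = 2 each), so the gap between groups was larger than the spread within either. The log2 difference was 0.71 (SE 0.08, 95% interval 0.52 to 0.90, limma adjusted p = 0.00116). By that difference Esr1 stood 49th from the top of the 14519 genes tested, and by unadjusted p it stood 203rd. The signal of control A was just inside the receptor range, and with that array set to 831 the fold was 1.61. Leaving out 1 array at a time gave log2 differences of 0.63 to 0.79, and Esr1 passed in each of these fits.

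Esr2 (NCBI gene 13983) encodes the second oestrogen receptor, known in the hypothalamus from the paraventricular nucleus. It had signals of 503 and 474 on ΔFosB arrays, against 378 and 397 on control arrays. The ΔFosB arrays were the higher ones, but all 4 signals were in the receptor range, so no fold is given. In the fit without a filter the log2 difference was 0.33 (SE 0.09, 95% interval 0.12 to 0.55, limma adjusted p = 0.0645), which did not pass. The olfactory and vomeronasal receptor features themselves leaned the same way. Their median log2 difference was 0.15, with 10th and 90th percentiles of -0.10 and 0.35, and 12.4% of them differed by at least as much as Esr2.

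Pgr (NCBI gene 18667), a classical oestrogen-induced gene whose product receives progesterone, had signals of 1949 and 1893 on ΔFosB arrays, against 1786 and 1777 on control arrays. Means were 1921 ± 39.2 on ΔFosB arrays and 1782 ± 6.38 on control arrays (SD, n = 2 each). Both ΔFosB arrays were above both control arrays, by little. The log2 difference of 0.11 (SE 0.06, limma adjusted p = 0.255) did not pass, and its 95% interval, -0.03 to 0.24, ends below the interval of Esr1.

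Nr3c1 (NCBI gene 14815), the glucocorticoid receptor, is made in most cells. Its signals were 4019 and 4064 on ΔFosB arrays and 3978 and 3881 on control arrays, with means of 4041 ± 32.1 on ΔFosB arrays and 3929 ± 68.5 on control arrays (SD, n = 2 each). The nearest arrays of the 2 groups almost met. The log2 difference was 0.04 (SE 0.05, 95% interval -0.08 to 0.16, limma adjusted p = 0.643), and with each array centred on its median it was -0.02, so neither direction is given.

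Nr3c2 (NCBI gene 110784), the mineralocorticoid receptor, binds both aldosterone and corticosterone. It was the single one of the 6 genes with lower signals on the ΔFosB arrays, 1517 and 1619, against 1660 and 1692 on control arrays. Means were 1568 ± 72.4 on ΔFosB arrays and 1676 ± 22.5 on control arrays (SD, n = 2 each), and ΔFosB B came close to control A. The log2 difference was -0.10 (SE 0.06, 95% interval -0.24 to 0.05, limma adjusted p = 0.342) and did not pass.

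Cyp19a1 (NCBI gene 13075), the only enzyme among the 6, converts androgens to oestrogens in neurons of the preoptic area and the bed nucleus. It had signals of 391 and 421 on ΔFosB arrays, against 349 and 323 on control arrays. The groups did not overlap, yet all 4 signals were in the receptor range, so no fold is given. Without a filter the log2 difference was 0.27 (SE 0.10, 95% interval 0.04 to 0.51, limma adjusted p = 0.136) and did not pass. Of the olfactory and vomeronasal receptor features, 22.6% differed by at least as much.

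**Figure D2:**
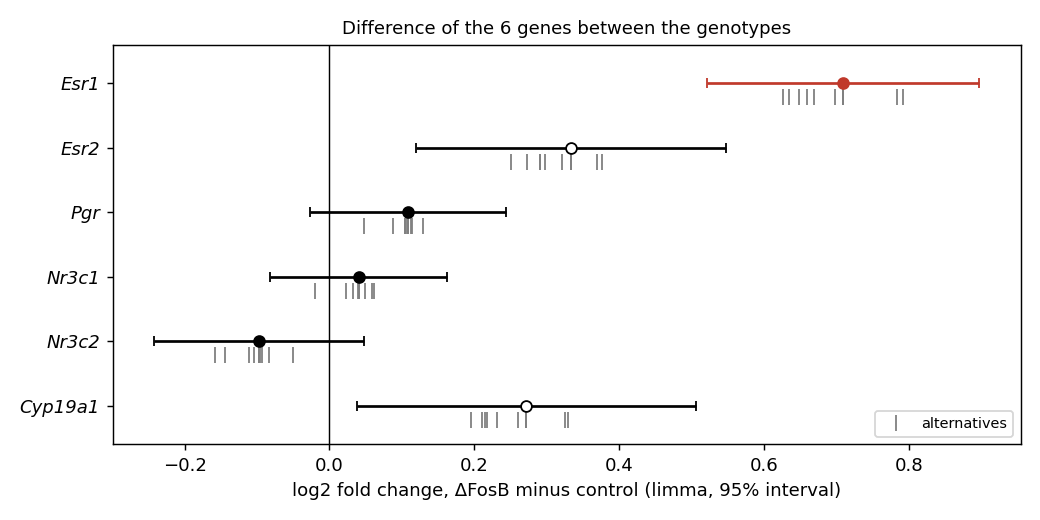
Log2 difference (ΔFosB minus control) of each gene with its 95% interval from limma. Red marks a gene past an adjusted p of 0.05, open circles mark genes taken from the fit without a filter, and grey ticks mark the values under the alternative settings. Esr1 at 0.71 is clear of zero throughout, and the ticks of Nr3c1 lie on both sides of zero.

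The genes whose profile over the 4 arrays was most like that of Esr1 were looked up by the root mean square difference of log2 signals, each gene centred on its own mean. These were Mc4r (0.023), a receptor for melanocortin peptides that restrains feeding, the gene listed as ENSMUSG00000053570 (0.024) and Trpc7 (0.026), a cation channel subunit. Mc4r signals were 1552 and 1774 on ΔFosB arrays, against 983 and 1071 on control arrays, a log2 difference of 0.69 (SE 0.08, limma adjusted p = 0.00124). ENSMUSG00000053570 differed by 0.67 (SE 0.08, limma adjusted p = 0.000982). Trpc7 had signals of 957 and 1020 on ΔFosB arrays, against 574 and 625 on control arrays, where it was in the receptor range. Trpc7 passed the filter only through its ΔFosB signals. As these genes were picked for likeness to Esr1, which passed, their differences and adjusted p follow from that choice and are not separate evidence. In all, 51 genes lay within 0.1 of the Esr1 profile, so likeness over 4 arrays is shared by many genes.

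**Figure D3:**
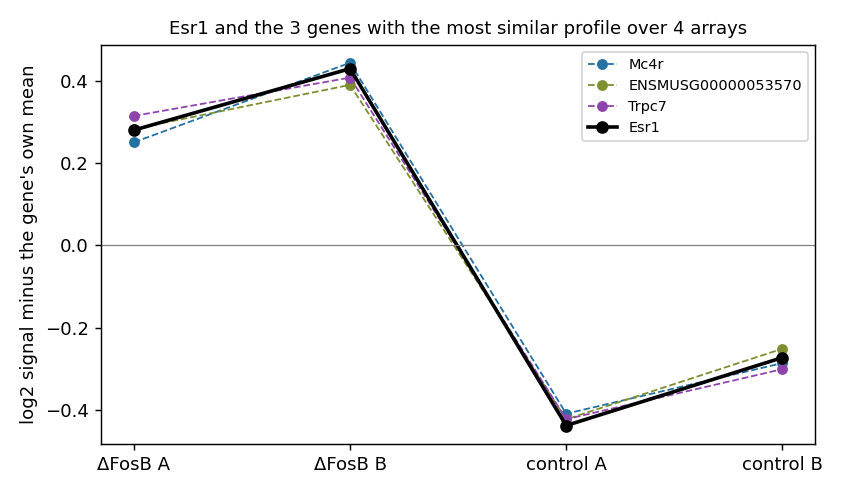
Log2 signal minus the gene's own mean for Esr1 (black) and the 3 genes with the most similar profile, on ΔFosB A, ΔFosB B, control A and control B. Esr1 stands at 0.28 and 0.43 on the ΔFosB arrays and at -0.44 and -0.27 on the control arrays, and the other lines follow within a root mean square of 0.026.

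Several sets of genes around steroid receptor action were described by how many of their members passed the test. Some genes stand in more than 1 set, so the counts are not separate results. Among genes that passed, Avp, Pomc and Gal also count as hypothalamic regional genes below, and Nr2f2 as a marker of the amygdala and bed nucleus. The median log2 difference of all genes tested was 0.02. Of these 14519 genes, 13.1% passed the test and 4422 had an unadjusted limma p under 0.05, and the counts of each set stand beside these. A gene whose control signals were under 717 could pass the filter only through high ΔFosB signals, so counts without a filter are given where they differ. Of 13 tested membrane receptors for steroids and orphan relatives of the steroid receptors, 1 was higher, 2 were lower and the median was 0.00. Nr2f2, the orphan receptor COUP-TFII, had signals of 2450 and 2340 on ΔFosB arrays, against 1617 and 1570 on control arrays, and rose by 0.59 (SE 0.06, limma adjusted p = 0.000647). Paqr8, a membrane progestin receptor, fell by 0.28 (SE 0.05, limma adjusted p = 0.00691). Esrrg, an orphan relative of the oestrogen receptors, fell by 0.44 (SE 0.09, limma adjusted p = 0.0178), a call lost without control A (adjusted p = 0.0915) and without control B (adjusted p = 0.0634). The membrane progesterone-binding protein Pgrmc1 had signals of 11917 and 11954 on ΔFosB arrays, against 10011 and 11084 on control arrays, with a difference of 0.18 that did not pass (limma adjusted p = 0.0578) but did without control B (adjusted p = 0.029). Without a filter 2 of 16 were higher and 2 lower. Counts in this set rest on single arrays: 2 genes were higher without control B or without ΔFosB A, and 1 was lower without control A or without control B.

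Genes of the proteins that hold and serve the receptors mostly gave differences near zero. Of 12 chaperone genes, 0 were higher and 1 was lower, with a median of 0.02 (1 at an unadjusted p under 0.05). That gene, the cochaperone Bag1, fell by 0.21 (SE 0.06, limma adjusted p = 0.0411), and it no longer passed when any 1 array was left out (adjusted p of 0.105 to 0.163). The chaperone gene Hsp90aa1 differed by -0.04 and the cochaperone Fkbp4 by 0.06, and neither passed. Dnajb1, a heat-shock cochaperone, stood at 2456 and 4303 on ΔFosB arrays, against 2443 and 2585 on control arrays, so that ΔFosB B alone was high. Its difference of 0.37 (limma adjusted p = 0.255) became 0.78 without ΔFosB A and passed there (adjusted p = 7.9e-05), and it became -0.03 without ΔFosB B. Of 16 coactivator and corepressor genes, 0 were higher and 1 was lower, with a median of 0.02. Kat2b, an acetyltransferase coactivator, fell by 0.46 (SE 0.07, limma adjusted p = 0.00376), with signals of 1605 and 1651 on ΔFosB arrays, against 2127 and 2351 on control arrays. Ncoa3 at -0.11, Crebbp at 0.07 and Pelp1 at 0.12 did not pass.

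Of 14 tested genes of steroid synthesis and inactivation, 0 were higher and 4 were lower, and the median was -0.18. Without a filter 4 of 25 were lower, and the median was -0.02. A further 11 of the set were under the filter, among them Star, Cyp11a1 and Cyp17a1, which act early in steroid synthesis. Hsd11b1, the enzyme that regenerates active glucocorticoid inside cells, had signals of 1169 and 912 on ΔFosB arrays, against 1752 and 1546 on control arrays, and fell by 0.67 (SE 0.11, limma adjusted p = 0.00669). Srd5a1, the reductase that makes dihydrotestosterone, fell by 0.36 (SE 0.07, limma adjusted p = 0.00944). Hsd17b7, which acts on oestrone and in cholesterol synthesis, fell by 0.46, and Cyp7b1, an oxysterol hydroxylase, fell by 0.33 (limma adjusted p of 0.0109 and 0.0147). The electron donors Por at 0.14 and Fdx1 at 0.16 did not pass. Without control A, 0 of the 14 were lower, and the log2 differences of the 4 genes then lay between -0.58 and -0.34. The call of Cyp7b1 was also lost without control B (adjusted p = 0.078).

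Of 19 tested genes known to respond to glucocorticoids, 0 were higher and 6 were lower, with a median of -0.20. Without a filter 5 of the 19 were lower. Sgk1, a kinase induced by corticosteroids, had signals of 5115 and 5430 on ΔFosB arrays, against 8980 and 7054 on control arrays, and fell by 0.59 (SE 0.10, limma adjusted p = 0.00589). Nfkbia, the inhibitor of NF-κB, fell by 0.45 (SE 0.08, limma adjusted p = 0.00753). Pdk4, Dusp1 and Tsc22d3 also fell, by 0.59, 0.33 and 0.35 in that order. Arrdc2 was at least 1.37-fold lower, with a ΔFosB mean of 830, just inside the receptor range. The call of Tsc22d3 was lost under quantile normalization, no filter and no intensity trend (adjusted p of 0.0537 to 0.0672) and without control A, control B or ΔFosB A (adjusted p of 0.076 to 0.221). That of Pdk4 was lost with robust estimation (adjusted p = 0.0959) and that of Dusp1 without ΔFosB B (adjusted p = 0.0687). Other genes often used as readouts of the receptor did not pass: Fkbp5 had signals of 1142 and 1106 on ΔFosB arrays, against 1141 and 1062 on control arrays (limma adjusted p = 0.802), Per1 differed by 0.06 and Rasd1 by 0.15. Control A carried the highest signal of all 6 genes that were lower (Sgk1, Nfkbia, Pdk4, Arrdc2, Dusp1 and Tsc22d3). Without it 1 gene of the set was lower (the median was -0.10), whereas without control B 9 were.

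Of 13 tested genes known to respond to oestrogen or progesterone in brain or reproductive tissue, 7 were higher and 1 was lower, with a median of 0.26. Of these, Pdyn and Cckar passed the filter only through their ΔFosB signals. Without a filter 7 of 16 were higher and 1 was lower, with a median of 0.23. Pdyn, the dynorphin precursor, had signals of 1464 and 1576 on ΔFosB arrays, against 531 and 577 on control arrays. With control signals in the receptor range the fold is a bound, at least 1.83-fold higher (limma adjusted p = 3.2e-05). Such a bound sets each dim control array to 831 and ignores the spread between arrays. Cckar, a cholecystokinin receptor, was at least 1.28-fold higher (limma adjusted p = 0.000216), with means of 1063 ± 27.6 on ΔFosB arrays and 578 ± 0.177 on control arrays (SD, n = 2 each). Prlr, the prolactin receptor, was at least 1.62-fold higher (limma adjusted p = 0.000389), with means of 1353 ± 10.6 on ΔFosB arrays and 813 ± 34.8 on control arrays (SD, n = 2 each). Irs4 and Tac2 rose by 0.79 and 0.62 on the log2 scale, and Penk by 0.26. Gal, the galanin precursor, had signals of 3046 and 3612 on ΔFosB arrays, against 759 and 1341 on control arrays, and its fitted difference of 1.72 rests in part on control A, where it was in the receptor range. The call of Gal was lost with robust estimation of the spread (adjusted p = 0.123). That of Penk was lost without control A (adjusted p = 0.165), without ΔFosB A (adjusted p = 0.0953), under median centring (adjusted p = 0.0593) and without an intensity trend (adjusted p = 0.0556). Rprm, named for its arrest of the cell cycle, fell by 0.49 (SE 0.07, limma adjusted p = 0.00227), and Igf1r at -0.09 did not pass.

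Another set held peptides of the corticosteroid axis with their receptors and relatives, among them Ucn2 and Ucn3. Of its 8 tested genes, 4 were higher and 1 was lower, with a median of 0.28. Corticosteroid release was not measured, and these counts do not stand for it. Ucn3 passed the filter only through its ΔFosB signals. Without a filter 4 of 11 were higher and 1 was lower, with a median of 0.22. Avp, the vasopressin precursor, had signals of 5181 and 6063 on ΔFosB arrays, against 946 and 1483 on control arrays, and rose by 2.24 (SE 0.17, limma adjusted p = 0.00021). Pomc, the precursor of corticotropin and melanocortins, was at least 1.92-fold higher (limma adjusted p = 8.13e-05), with means of 1597 ± 12.6 on ΔFosB arrays and 807 ± 5.1 on control arrays (SD, n = 2 each). Ucn3 was at least 1.17-fold higher. Ucn2 rose by 0.35, a call that was lost without control A (adjusted p = 0.132) and without ΔFosB B (adjusted p = 0.0655). Crhr1, a receptor of corticotropin-releasing hormone, fell by 0.41 (SE 0.06, limma adjusted p = 0.00418), with signals of 1147 and 1167 on ΔFosB arrays, against 1580 and 1504 on control arrays. Crhbp, which binds the same hormone, differed by -0.01. Crh itself was under the filter, with signals of 407 and 441 on ΔFosB arrays, against 369 and 357 on control arrays.

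**Figure D4:**
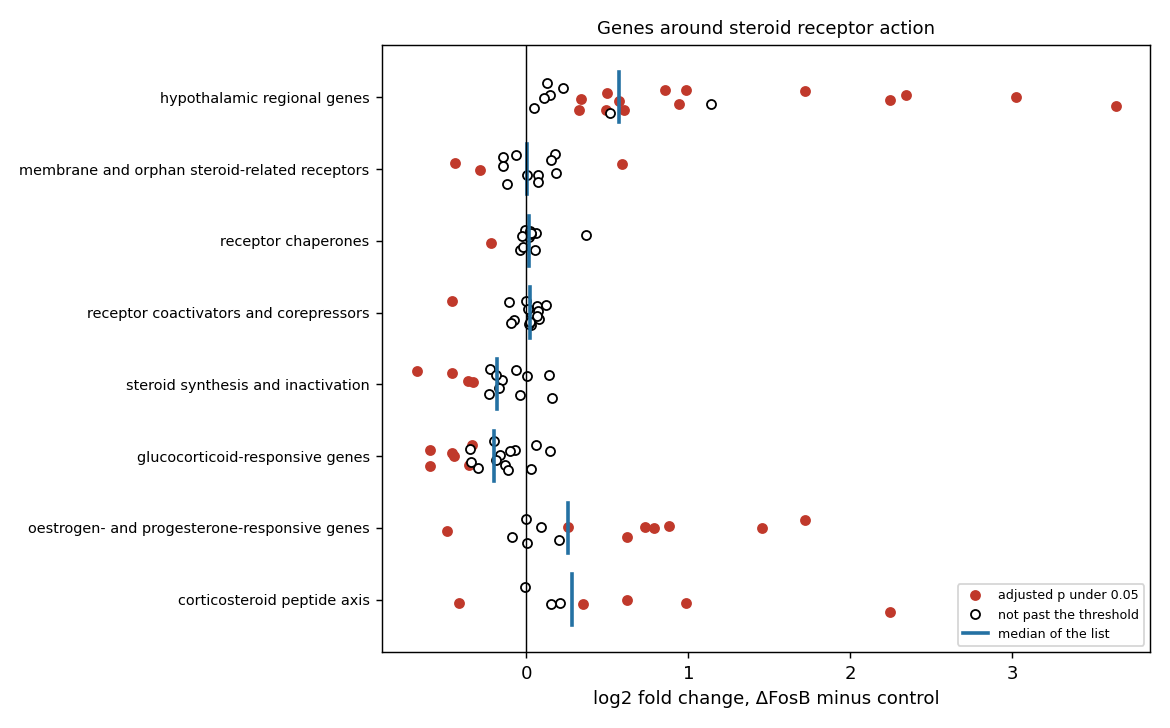
Log2 difference (ΔFosB minus control) of every tested gene in 8 sets around steroid receptor action, filled red where the limma adjusted p was under 0.05, with the median of each set as a blue bar. Chaperones and coregulators gather near zero, steroid synthesis and glucocorticoid-responsive genes sit left of zero (medians -0.18 and -0.20), and the hypothalamic regional genes sit right of it (0.57).

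Markers of brain regions and of cell types also differed between the groups, and their values stand beside the Esr1 result and the sets above. Of 21 tested hypothalamic regional genes, 14 were higher and 0 were lower, with a median of 0.57. Of the 14, Fezf1, Lhx8 and Nr5a1 passed the filter only through their ΔFosB signals. Without a filter 15 of 23 were higher and 0 lower, with a median of 0.56. Their summed signal was 66667 and 69087 on ΔFosB arrays, against 28121 and 40083 on control arrays. Hcrt and Pmch had the highest signals of the set on every array and so weigh most in these sums. Hcrt stood at 9467 and 9525 on ΔFosB arrays, against 2557 and 7256 on control arrays. Pmch stood at 12055 and 11570 on ΔFosB arrays, against 6076 and 11170 on control arrays. Neither passed (limma adjusted p of 0.0746 and 0.144). Oxt, the oxytocin precursor, rose by 3.02, and Fezf1, a transcription factor of the ventromedial nucleus, was at least 3.14-fold higher, with control signals of 185 and 239 in the receptor range. Hmx3 at 0.05 and Agrp at 0.13 did not pass. Of 9 markers of midbrain dopamine neurons, 6 were lower and 0 higher, with a median of -1.39 and summed signals of 17043 and 17663 on ΔFosB arrays, against 48336 and 40941 on control arrays. Aldh1a1, an enzyme of these neurons, fell by 1.78, and Pitx3 at 0.14 did not pass. Of 8 markers of the amygdala and bed nucleus, 4 were higher and 0 lower (median 0.38, sums of 22256 and 19886 on ΔFosB arrays against 13638 and 13905 on control arrays), with Sst up by 0.95. Lhx6, 1 of these 4, passed the filter only through its ΔFosB signals. The part of these regional differences in the Esr1 result was not tested.

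Thalamic, cortical and striatal markers gave mixed values. Of 8 thalamic markers 0 passed (4 at an unadjusted p under 0.05), their median was -0.46, and their sums were 28366 and 20209 on ΔFosB arrays, against 36562 and 26392 on control arrays, so array A was higher than array B in both groups. Without ΔFosB A, 6 of these 8 were lower, and without control B 1 was. Of 6 cortical and hippocampal markers 2 were higher and 0 lower (median 0.19, sums of 27056 and 25303 on ΔFosB arrays, against 24303 and 21815 on control arrays), 4 of 9 without a filter, and of 8 striatal markers 2 were higher and 3 lower (median 0.13, sums of 16307 and 16001 on ΔFosB arrays, against 16049 and 15935 on control arrays). Of the striatal markers, 1 was higher and 0 were lower without control A, and 1 was lower without control B or without ΔFosB B. The cortical transporter gene Slc17a7 had signals of 1206 and 344 on ΔFosB arrays, against 2596 and 1009 on control arrays. Its log2 difference of -1.33 did not pass, but it did with arrays paired by their letters A and B (limma adjusted p = 8.1e-14). That difference rests in part on ΔFosB B, where the signal of 344 was in the receptor range. Without ΔFosB A the difference was -2.23, with that dim signal as the only ΔFosB value, so its size is not firm. The cortical markers Neurod6 and Tbr1 and the striatal marker Adora2a were in the receptor range on every array.

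Among cell types, all 10 oligodendrocyte and myelin genes were lower, with a median of -0.59 and sums of 75744 and 81725 on ΔFosB arrays, against 108303 and 111622 on control arrays. Mog, a myelin surface protein, fell by 0.83. Of 8 vessel markers 5 were lower and 0 higher (median -0.27, sums of 13383 and 13514 on ΔFosB arrays, against 15926 and 16430 on control arrays), but 1 without control B and 3 without control A or without ΔFosB A, and Kdr at 0.05 did not pass. Of 8 astrocyte markers 1 was higher and 3 lower (median -0.16, sums of 53160 and 53852 on ΔFosB arrays, against 54934 and 56350 on control arrays), and of 7 microglial markers 0 were higher and 1 was lower (median -0.06, sums of 15311 and 15430 on ΔFosB arrays, against 16089 and 16920 on control arrays). The microglial count was 0 without control A, without control B or without ΔFosB A, and without a filter. Of 8 general neuronal genes 0 passed (1 at an unadjusted p under 0.05), with a median of -0.06 and sums of 89915 and 86829 on ΔFosB arrays, against 91924 and 90219 on control arrays. Of 6 choroid plexus and ependymal genes 2 were higher and 0 lower (median 0.24, sums of 6217 and 6888 on ΔFosB arrays, against 5292 and 6571 on control arrays), and Ttr at -0.29 did not pass, with 848 and 1206 on ΔFosB arrays, against 850 and 1806 on control arrays. The difference of Ttr was -0.84 without control A and 0.25 without control B, so its direction rests on single control arrays. With arrays paired by their letters A and B Ttr passed as lower (limma adjusted p = 0.0149). In that fit 4 of the 6 genes were higher and 1 was lower. Both genes that were higher, Kl and Folr1, passed the filter only through their ΔFosB signals, and without a filter 1 of 7 was higher (Folr1 adjusted p = 0.0679). In the filtered set 0 were higher without control A or without ΔFosB B, and 1 without ΔFosB A. Of 3 tested pituitary genes 0 passed (median 0.14, 1 at an unadjusted p under 0.05), and Prl, Tshb, Fshb and Pou1f1 were in the receptor range on every array. Cga, the shared α subunit of pituitary hormones, was under the filter, with signals of 1316 and 902 on ΔFosB arrays, against 431 and 474 on control arrays in the receptor range. Fitted without a filter it was at least 1.31-fold higher (limma adjusted p = 0.00205), 1 of 8 pituitary genes to pass there. The part of these cell type differences in the glucocorticoid-responsive and steroid synthesis sets was not tested.

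**Figure D5:**
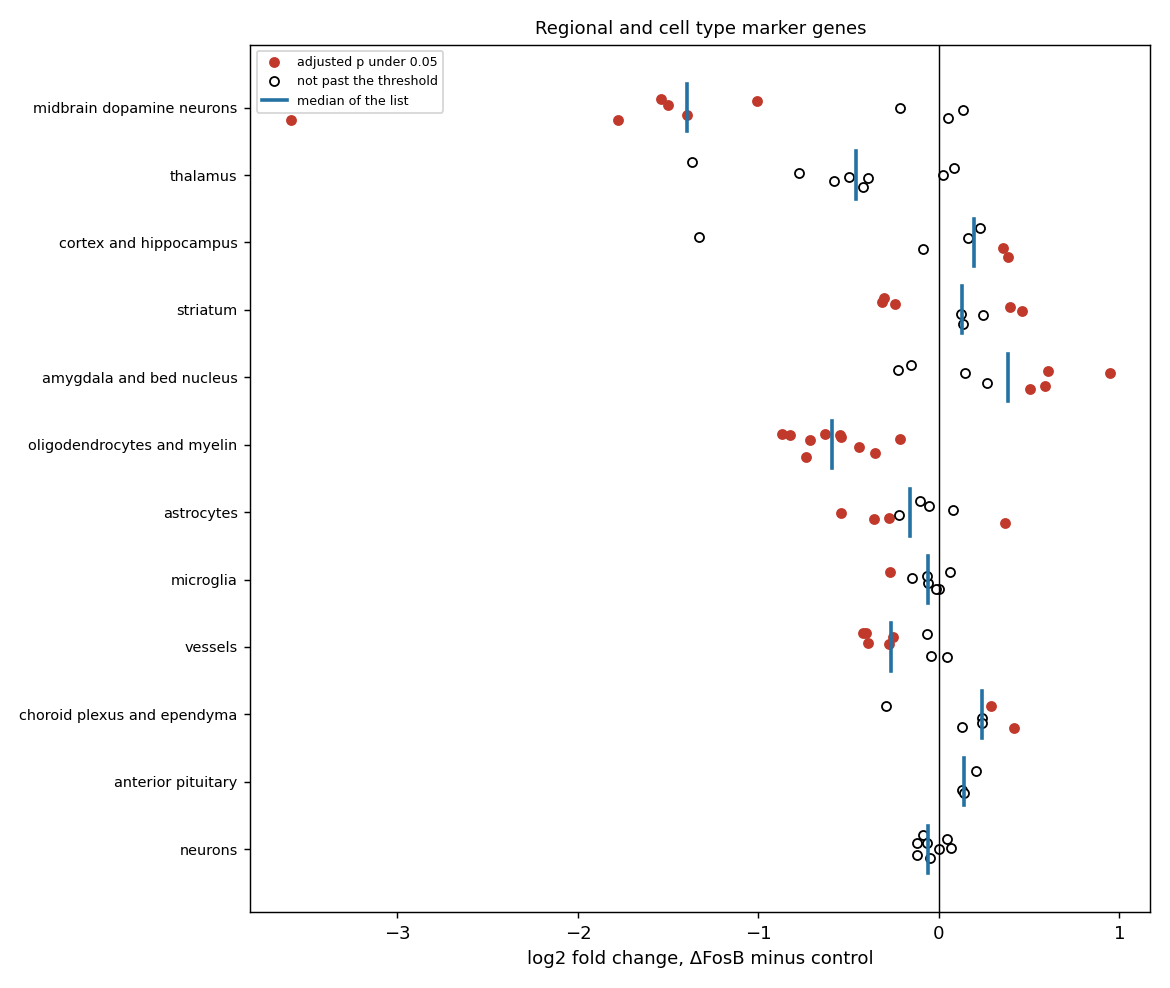
Log2 difference (ΔFosB minus control) of every tested marker gene of 12 brain regions and cell types, filled red where the limma adjusted p was under 0.05, with the median of each set as a blue bar. The midbrain dopamine markers (median -1.39) and the myelin genes (median -0.59) lie left of zero, and the amygdala and bed nucleus markers (median 0.38) lie mostly right of it.

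The genes in the transgene's name were read beside the genotype labels. As the labels do not state what drives the transgene, the Eno2 signal cannot check them. Fosb had signals of 1579 and 2189 on ΔFosB arrays, against 1377 and 1220 on control arrays, a log2 difference of 0.52 (SE 0.13, limma adjusted p = 0.0389). The 2 groups did not overlap, though ΔFosB A lay near control A, and the call was lost without control A, control B or ΔFosB B (adjusted p of 0.0684 to 0.147), and under quantile normalization (0.0616), median centring (0.0667), no filter (0.0511) and robust estimation (0.123). Eno2 differed by -0.05 (limma adjusted p = 0.418). Summed signals were 68636594 to 68961786 per array, and the number of arrays limits the precision, with a median standard error of 0.066 for a log2 difference.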

How the data were processed

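The authors deposited linear intensities, 1 per probe set, and MAS5 is the tool named in the submitters' processing notes. Its version and scaling, the annotation and the build were not given in the sources used here. The authors' full sheet of 35474 features equalled the series' value table (largest difference 0). Log2 values were computed with no pseudocount or further normalization. Symbols were updated by gene identifier through RefSeq (GRCm38.p6), which held 21637 of the 23015 features with 1 identifier. A further 2160 with several identifiers named no gene. The feature with the highest mean log2 signal stood for a gene. Groups were compared with limma (lmFit, eBayes with an intensity trend), adjusted by Benjamini-Hochberg over all genes tested; genes under the filter took their values from a fit without it. The procedure was tested on simulated data.

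The 6 genes, the lists and the tests were chosen with earlier results of these data known. Named genes are the 6 members, Fosb, Eno2, the 3 genes most like each member past the threshold, and from each list up to 2 of highest and 2 of lowest moderated statistic (1 each for markers); others were named after their values were seen. Some genes of the lists are not reported here. The alternatives tried were median centring, quantile normalization, a pseudocount (16 or 64), other filters and eBayes settings, probe sets kept separate, the replicate letter as a block, and 1 array left out at a time. Tests ran in limma 3.58.1 under R 4.3.3, tables in pandas 2.3.3 with Python 3.11.15 and numpy 2.4.6, and plots in matplotlib 3.10.9.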

Additional observations from a re-analysis of the deposited data

How the results depend on the processing

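The call of Esr1 held under every alternative that tested it. With the upper 40% of signal Esr1 was not tested, and 0 of the 3 tested of the 6 genes passed. Among the 6 genes 1 direction changed: Nr3c1 stood at -0.0199 under median centring. The 2 letters of the array titles gave 2 pairs, whose A minus B differences correlated at 0.24 over genes, which leaves the pairing unsettled. With them as a replicate block, 3822 genes passed, and Esr2 passed too (log2 difference 0.33, limma adjusted p = 0.0404). With that block 6 of the 8 thalamic markers were lower, against 0 without it. Leaving out 1 array gave 702 (without control A) to 1696 genes, and 1253 without control B. Median centring put 490 genes higher and 1580 lower, against 898 and 1004, and moved the median of all genes tested to -0.04.

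Named genes that did not pass also changed sign. Under quantile normalization Hmx3 stood at -0.0205, Crhbp at 0.0032 and Kdr at -0.0393. Under median centring Hmx3 stood at -0.0122, Fkbp4 at -0.0029, Per1 at -0.0027 and Kdr at -0.0154. Leaving out 1 array gave -0.0163 to 0.11 for Hmx3, -0.0302 to 0.29 for Agrp, -0.0331 to 0.78 for Dnajb1, -0.0924 to 0.0136 for Hsp90aa1, -0.0497 to 0.34 for Rasd1, -0.035 to 0.15 for Per1, -0.0308 to 0.0117 for Crhbp, -0.0742 to 0.16 for Kdr and -0.84 to 0.25 for Ttr. The cause of these changes was not tested. The alternatives for the lists and for the genes named from them were chosen after seeing the data. Esr2 and Cyp19a1 lay in the receptor range, so dim signal limits what these arrays can show for them.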
